A study of Mus with 48 samples.

Results

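Astrocyte genes were followed across the 4 brain regions of a mouse model of Parkinson's disease, in saline, MPTP and MPTP + EX mice. The 10 genes, Gfap, Vim, Aqp4, Gja1, Slc1a2, Slc1a3, Aldh1l1, S100b, Fabp7 and Serpina3n, were taken by symbol as known markers of astrocytes and of reactive astrocytes, from 23366 gene names in the table, by a rule that uses no measured value, although earlier results of these data were known. All 10 passed the filter on low values (a mean above 1 FPKM) in every region. FPKM values are scaled for transcript length and library size, so that levels of different genes can be set side by side. RNA from the cortex, cerebellum, substantia nigra (SN) and striatum of 12 mice gave 48 libraries, 4 in each of 12 groups. The mice were female C57BL/6J, 8 weeks old at purchase, with no transgene. Saline mice were the controls. MPTP mice received 10 doses of the toxin MPTP at 25 mg/kg with probenecid, and MPTP + EX mice received the same doses and then ran on a treadmill 5 days a week, 40 min a day at up to 15 m/min, for 12 weeks. There was no group that ran without MPTP, and the sources used here do not give the time of day at which the mice were killed.

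Astrocytes take up glutamate and potassium, couple to each other through gap junctions, line blood vessels with water channels and supply neurons with metabolites. After injury they become reactive, a state in which the intermediate filaments Gfap and Vim and the protease inhibitor Serpina3n are classically raised. Astrocytes also differ by region, and the Bergmann glia of the cerebellum are a specialised form. The tissue here was a bulk dissection, in which fewer cells of a type and less RNA per cell cannot be told apart.

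The labels of the regions were matched by their markers, since the summed FPKM of dopaminergic genes was 89.3 to 1022 in the SN and at most 17.2 elsewhere, and that of medium spiny neuron genes was 2818 to 4262 in the striatum and at most 365.6 elsewhere. Cerebellar genes summed to 2021 to 2506 in the cerebellum (at most 451.3 elsewhere) and neocortical genes to 692 to 877 in the cortex (at most 399.4 elsewhere). In the striatum the neocortical sum was 31.7 to 373, with medians of 278 in saline, 89.7 in MPTP and 215 in MPTP + EX mice. The part of cortical tissue in the striatum values was not tested. Between 12809 and 13593 genes lay above 1 FPKM in 47 libraries, with a median correlation of 0.990 to 0.995 with the other libraries of the region. For 1 library, the striatum of E29 (MPTP + EX), these values were 11595 and 0.896. It is given apart in what follows, and each striatum comparison is given with and without it. Read counts were not part of the table. The number of reads behind each value is therefore unknown. Relative depth, estimated from the steps between low values, varied within a region by up to 1.36 fold in the cortex, 1.58 in the cerebellum, 1.51 in the SN and 1.30 in the striatum (47 libraries). Precision comes from the spread between mice, 4 in each group, pooled over the 3 groups of a region in the fits.

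Without toxin, the 10 genes had different regional patterns. Gfap, the main intermediate filament of astrocytes, was highest in the SN of saline mice, at 219.7, 310.4, 312 and 362.5 FPKM, while the highest of the other 12 saline libraries was 88.0 FPKM. The SN level lay above that of the cortex, the cerebellum and the striatum by 2.27, 2.13 and 2.42 on the log2(FPKM + 1) scale (adjusted p from limma at most 9.3e-09), and the latter 3 regions did not differ in Gfap beyond their spread (adjusted p 0.12 to 0.50). Vim, the filament partner of Gfap, did not follow it. It was highest in the cerebellum, at 58.5, 59.2, 73.5 and 73.8 FPKM, and 14.9, 19.1, 21.9 and 27.2 FPKM in the SN. The ratio of Gfap to Vim FPKM within a library was 9.20 to 16.6 in the SN, 0.744 to 1.233 in the cerebellum, 2.52 to 4.89 in the cortex and 3.13 to 5.14 in the striatum without E29, over all 3 treatment groups.

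The water channel Aqp4 and the gap junction protein Gja1 (connexin 43) were both highest in the SN. Aqp4 was 76.6 ± 9.06 FPKM (SD, n = 4) in the SN of saline mice, 61.0 ± 6.48 in their cerebellum, 19.8 ± 4.99 in the cortex and 17.7 ± 1.25 in the striatum. The last 2 regions did not differ beyond their spread (adjusted p = 0.50 from limma). Gja1 was 115 ± 10.1 FPKM in the SN, 67.7 ± 1.45 in the cerebellum, 58.1 ± 7.36 in the cortex and 55.8 ± 3.6 in the striatum. Both are proteins of the astrocyte membrane, and the ratio of Aqp4 to Gja1 FPKM was 0.566 to 1.03 in the SN and cerebellum libraries and 0.262 to 0.389 in the cortex and striatum libraries without E29.

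The glutamate transporters differed most in the cerebellum, which was lowest of the 4 regions in Slc1a2 and highest in Slc1a3, while cortex, striatum and SN had the same order in both. Slc1a2 (GLT-1), the chief glutamate transporter of the forebrain, was 274 ± 26.1 FPKM (SD, n = 4) in the saline cortex, 207 ± 22.5 in the striatum, 131 ± 9.08 in the SN and 73.8 ± 16.8 in the cerebellum. Slc1a3 (GLAST), the chief glutamate transporter of Bergmann glia, was 272 ± 26.5 FPKM in the cerebellum, 143 ± 17.2 in the cortex, 113 ± 7.30 in the striatum and 89.9 ± 21.4 in the SN. The ratio of Slc1a2 to Slc1a3 FPKM was 1.82 to 2.07 in the 12 cortex libraries and 0.203 to 0.355 in the 12 cerebellum libraries, with 0.915 to 1.75 in the SN and 1.54 to 2.05 in 11 striatum libraries. For both genes all 6 pairs of regions differed at an adjusted p under 0.05 except cortex against striatum for Slc1a3 (0.33 on the log2 scale, adjusted p = 0.063 from limma).

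Aldh1l1, a folate enzyme used as a general astrocyte marker, had the narrowest range, from 19.5 ± 1.85 FPKM (SD, n = 4) in the saline striatum to 29.7 ± 1.84 in the SN. S100b, a calcium-binding protein that oligodendrocytes also make, was 169 ± 15.6 FPKM in the cerebellum, 125 ± 10.3 in the SN, and lower in the striatum (63.2 ± 0.938) and the cortex (56.4 ± 2.6). Fabp7 (brain lipid-binding protein), a fatty acid carrier of radial glia and astrocytes, was 43.6 ± 11 FPKM in the SN and 14.1 to 21.6 on average elsewhere. Serpina3n was the lowest of the 10 in each region. It was 7.94, 8.08, 10.1 and 11.1 FPKM in the SN of saline mice and 0.954, 1.08, 1.25 and 2.0 FPKM in their cerebellum. Among the 6 pairs of regions in saline mice, 10 of the 10 genes passed an adjusted p under 0.05 for cerebellum against SN and for SN against striatum, where 66.2% and 57.6% of all genes did. The counts were 9 for cortex against SN and for cerebellum against striatum (59.5% and 64.8% of all genes), 7 for cortex against cerebellum (66.7%) and 3 for cortex against striatum (35.4%). The last count was 5 without the SN library of S4 and 1 without the striatum library of S4.

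**Figure D1:**
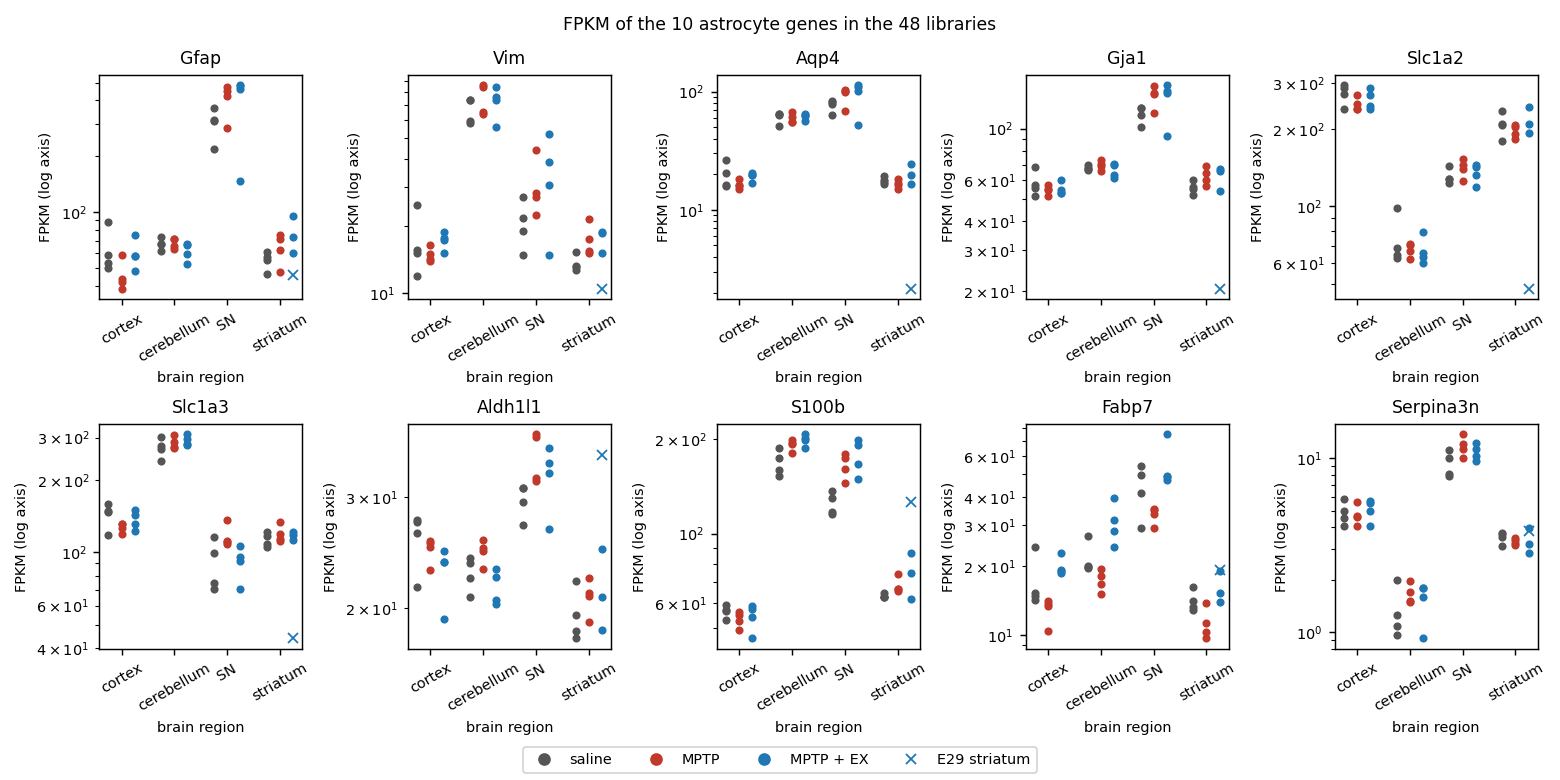
FPKM (log axis) of the 10 genes in each of 48 libraries, by brain region (x axis) and treatment group (colour), 1 point a library and a cross for the striatum library of E29. Gfap stands between 146.6 and 486.6 FPKM in the SN and below 100 elsewhere, Slc1a3 is highest in the cerebellum, and the cross lies below all other striatum points for Aqp4, Gja1, Slc1a2, Slc1a3, Gfap and Vim and above them for Aldh1l1, S100b and Fabp7.

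In the striatum library of E29 the members went in both directions from the median of the other striatum libraries. The FPKM of this library summed to 619797, against 343661 to 402521 in the other 47 libraries. Its values thus lie on a higher scale, and the ratios that follow are not corrected for it. Aqp4 was 2.15 FPKM, 0.124 times the median of the other 11 striatum libraries, Slc1a2 was 47.9 (0.231 times), Gja1 20.5 (0.342 times) and Slc1a3 43.8 (0.376 times). S100b was 126 FPKM (1.91 times the median) and Aldh1l1 35.0 FPKM (1.68 times). Gfap, Vim, Fabp7 and Serpina3n were 0.685 to 1.40 times the median. The summed FPKM of choroid plexus markers in this library was 8559 (39.0 to 2550 in the other striatum libraries), and of microglial markers 864 (310 to 396). That of Bergmann and radial glia genes was 66.5 (89.4 to 111), and the neuronal sum lay within the range of the others. The part of these cells in the member values was not tested. With this library in the fit, the median log2 difference of all genes was -0.11 for MPTP + EX vs. MPTP and for MPTP + EX vs. saline in the striatum, and without it 0.00446 and 0.0095.

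None of the 10 genes passed adjustment for MPTP vs. saline in any region, where 0% of all genes passed outside the SN and 0.638% in the SN (limma, adjusted p under 0.05). At an unadjusted p under 0.05, 2 of 10 members passed in the cortex, both lower (20% of all genes in either direction), 2 in the cerebellum, S100b higher and Fabp7 lower (11.9%), 4 in the SN, all higher (11.3%, or 5.69% upwards), and 0 in the striatum (1.06%). Without the libraries of E29, 2 passed in the striatum, Vim higher and Fabp7 lower (10.1%), and 7 in the SN, all higher (13%), with 0.0227% and 1.19% of all genes past adjustment. For MPTP + EX vs. saline 0 of 10 passed an unadjusted p of 0.05 in the cortex (17.1%), and those that passed elsewhere were all higher, 2 in the cerebellum (16.9%), 1 in the SN (15.8%) and 1 in the striatum (2.76%). Without E29 they were 6 in the SN (22.1%) and 3 in the striatum (10.2%), where 0.00756% of all genes passed adjustment. In the cortex all 10 members had a log2 difference below 0 for MPTP vs. saline, with a median of -0.13 against -0.0038 over all genes. Saline mouse S1 had the highest value of all 12 cortex libraries for 8 of 10 members, all but S100b and Serpina3n, and the highest sum of meningeal fibroblast markers, 2304 FPKM against 474.6 to 1027. Without S1, 9 of 10 members remained below 0 and Gfap went from -0.43 to -0.25 (adjusted p 0.20 and 0.41). All 12 microglial genes and 9 of 10 oligodendrocyte genes were likewise below 0 in the cortex, 8 and 7 of them at an unadjusted p under 0.05, and the part of these cells in the values was not tested.

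**Figure D2:**
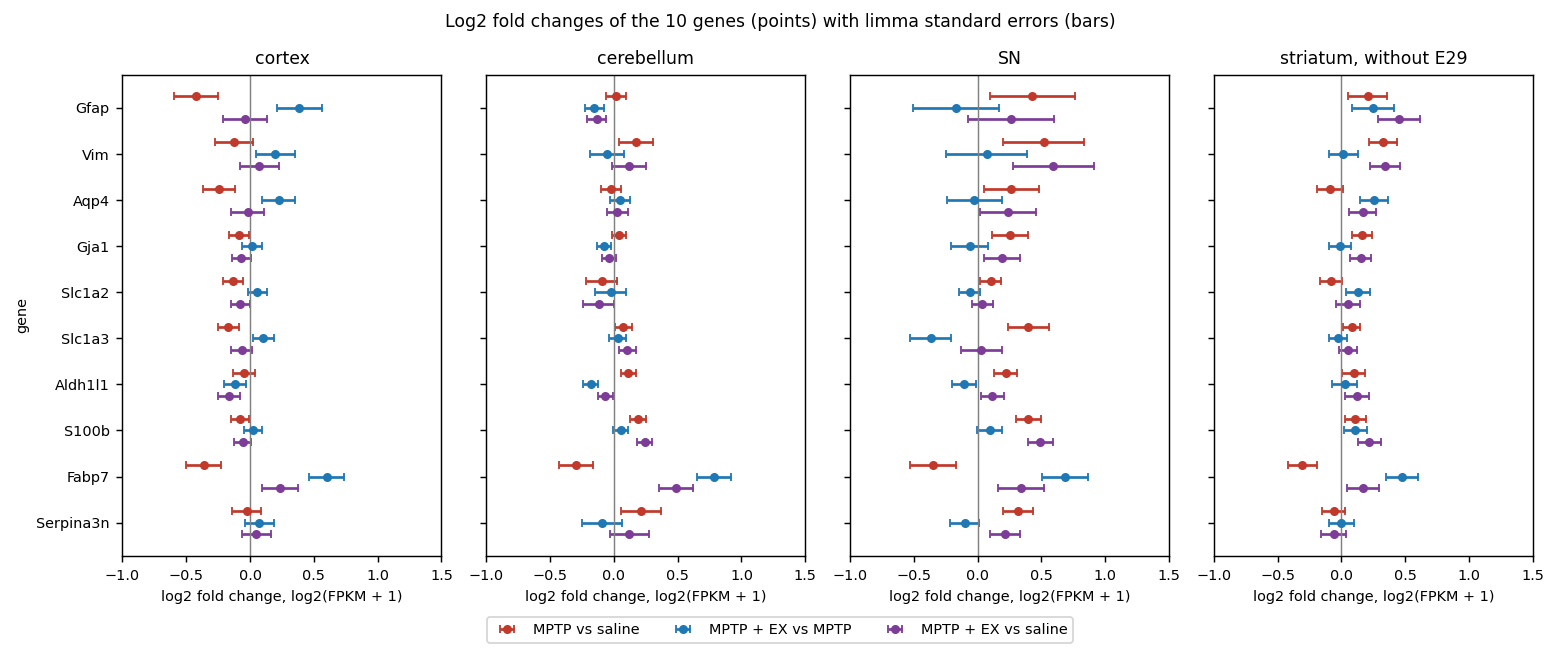
Log2 fold changes on the log2(FPKM + 1) scale (x axis) of the 10 genes (y axis) for 3 comparisons in each region, with limma standard errors as bars, the striatum without E29. Fabp7 lies below 0 for MPTP vs. saline and above 0 for MPTP + EX vs. MPTP in each panel, and S100b stands at 0.40 and 0.49 in the SN and below 0 in the cortex for the comparisons with saline.

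Fabp7 was the member with the most regular pattern, lower in MPTP mice than in saline mice on average and higher in MPTP + EX mice than in MPTP mice in all 4 regions. In the cerebellum its FPKM was 15.1, 16.7, 18.1 and 19.4 in MPTP mice, 19.6, 19.7, 20.02 and 27.1 in saline mice and 24.1, 28.3, 31.7 and 39.7 in MPTP + EX mice. In the SN it was 29.15, 33.5, 35.1 and 35.5 in MPTP mice, 29.2, 41.4, 49.8 and 54.2 in saline mice and 47.5, 48.7, 49.4 and 74.8 in MPTP + EX mice. MPTP + EX libraries thus lay above every MPTP library in both regions, while saline libraries overlapped with MPTP in the SN and with MPTP + EX in both. In the cortex Fabp7 was 10.4, 13.3, 13.6 and 14.0 FPKM in MPTP mice, 14.2, 14.8, 15.2 and 24.1 in saline mice and 18.7, 19.06, 19.08 and 22.7 in MPTP + EX mice. In the striatum it was 9.64, 10.3, 11.3 and 13.7 FPKM in MPTP mice, 12.8, 13.3, 14.1 and 16.1 in saline mice and 13.8, 15.2 and 19.0 in MPTP + EX mice, with 19.2 in the E29 library. The lowest MPTP + EX striatum library and the highest MPTP one differed by little.

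For MPTP + EX vs. MPTP, the ratio of mean Fabp7 FPKM was 1.55 in the cortex, 1.79 in the cerebellum, 1.65 in the SN and 1.5 in the striatum, or 1.42 without E29. The log2 differences were 0.60 ± 0.14 (standard error) in the cortex, 0.79 ± 0.13 in the cerebellum, 0.69 ± 0.18 in the SN and 0.54 ± 0.15 in the striatum. The unadjusted p was 0.00071, 4.4e-05, 0.0023 and 0.0033, and the p adjusted over all genes was 0.61, 0.14, 0.42 and 0.55 (limma), so that no region passed. Without E29 the striatum difference was 0.47 (adjusted p = 0.29), and without the cerebellum library of E26 the cerebellum difference passed (0.89, adjusted p = 0.040). The groups did not overlap in 4 of 4 regions. Such separation upwards was found for 1.75% of all genes in the cortex, 2.12% in the cerebellum, 2.27% in the SN and 1.59% in the striatum, and in all 4 regions for 1 of 12210 genes (0.00819%), which was Fabp7. The striatum share and the count over 4 regions include the E29 library and are not given without it. A gene that is low in that library cannot separate upwards, so they may understate how common such separation is. The values of that library also lie on a higher scale, which makes separation upwards easier for other genes, Fabp7 among them. Without it the 3 other MPTP + EX libraries still lay above every MPTP library in the striatum for Fabp7. As the 4 regions came from the same mice, they are not 4 independent tests. On the mean of the 4 regions per mouse, chosen after the data were seen, Fabp7 was 4.65 to 5.06 in the MPTP + EX mice and 4.10 to 4.28 in the MPTP mice on the log2 scale. The difference was 0.65 ± 0.10 (standard error, unadjusted p = 2.3e-05, adjusted p = 0.26 from limma). An exact permutation test gave p = 0.0286, the smallest that 4 against 4 mice allow, or 0.214 adjusted over 30 tests. Groups that separate in each region must also separate in the mouse means, so this p was fixed once that was seen. At the smallest p a few genes cannot pass adjustment over 30 tests, so the adjusted value decides nothing. On the mean of 3 regions without the striatum the Fabp7 difference was 0.69 and passed in limma (adjusted p = 0.042), where 0.0244% of all genes did. The exact permutation test gave the same p = 0.0286, or 0.214 adjusted, with the same limits.

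For MPTP vs. saline, the log2 differences of Fabp7 were -0.36 in the cortex, -0.30 in the cerebellum, -0.35 in the SN and -0.31 in the striatum (standard errors 0.13 to 0.18, adjusted p 0.17 to 1.0). The groups did not overlap in the cortex and the cerebellum, where 6.57% and 2.68% of all genes separated downwards. This comparison shares the MPTP libraries with that of MPTP + EX vs. MPTP, so the directions are not independent. Without saline S1 the cortical difference was -0.20. The differences for MPTP + EX vs. saline were 0.24, 0.49, 0.34 and 0.23 in the same order of regions, with adjusted p of 0.16 to 0.64.

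**Figure D3:**
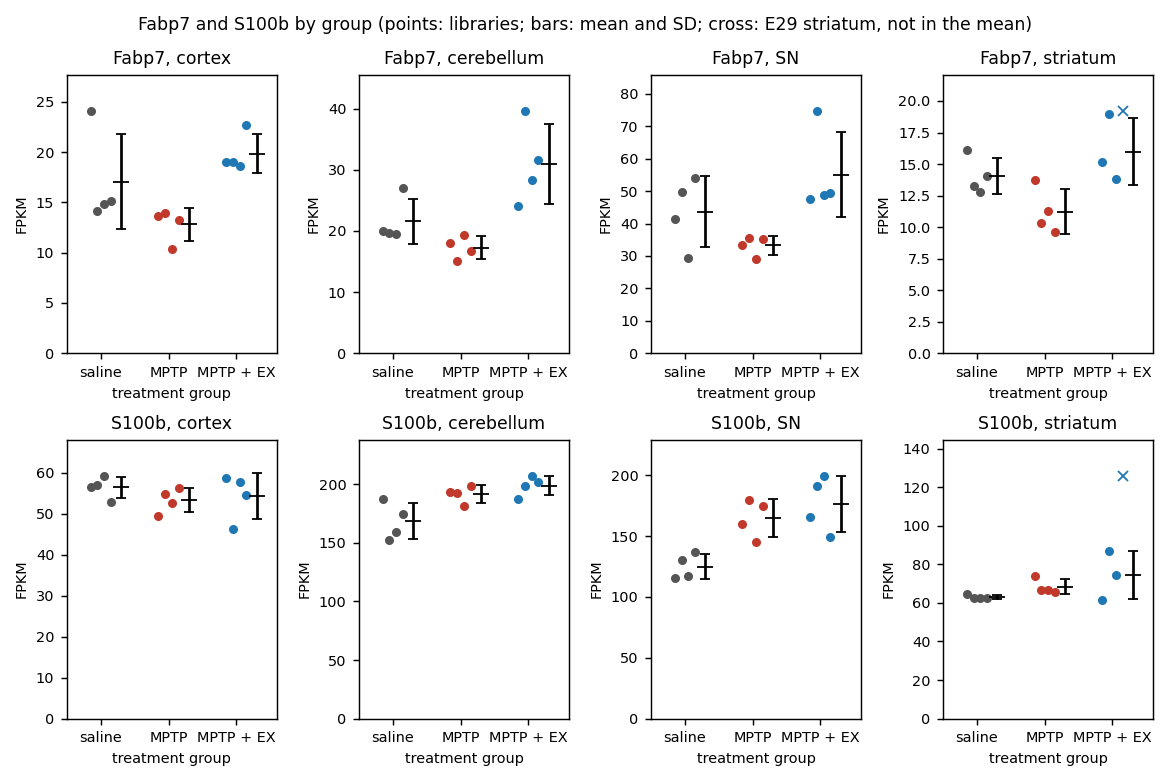
FPKM (y axis) of Fabp7 (upper row) and S100b (lower row) in each region by treatment group, 1 point a library, with the mean and SD of each group as bars and a cross for the striatum library of E29, which is not in the mean. The 4 MPTP + EX points of Fabp7 lie above the 4 MPTP points in each region, and the saline points of S100b in the SN lie at 116 to 137 FPKM, below all others.

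Genes of the circadian clock were read in the same mice. Fabp7 is known as a gene whose mRNA follows a daily rhythm in mouse brain, so 15 clock genes were set beside it, a list added after the values were seen. Per2, a clock repressor, was 18.3 to 21.4 FPKM in the cerebellum of MPTP mice, 10.4 to 13.6 in MPTP + EX mice and 12.7 to 15.1 in saline mice. Dbp, a transcription factor driven by the clock, was 57.1 to 62.3 FPKM in MPTP mice, 34.2 to 44.4 in MPTP + EX mice and 48.2 to 53.2 in saline mice. Both fell in the cerebellum for MPTP + EX vs. MPTP, Per2 by 0.63 and Dbp by 0.60 on the log2 scale (adjusted p = 0.0088 for each, limma), and they were the 2 genes of 12949 that passed there (0.0154%). Without E29 they also fell in the striatum, by 0.57 and 0.76 (adjusted p = 0.025 for each), and were again the 2 genes that passed (0.0151%). On the mouse mean of 3 regions without the striatum, the 3 genes that passed were Fabp7, Per2 (-0.49, adjusted p = 0.021) and Dbp (-0.58, adjusted p = 0.042). Over the list, 13 of 15 tested clock genes were below 0 in the cortex, 12 of 14 in the cerebellum, 12 of 15 in the SN and 12 of 15 in the striatum without E29, with medians of -0.19, -0.19, -0.22 and -0.25, against 0.00196, 0.00218, 0.0104 and 0.00446 over all genes. For MPTP vs. saline 13, 13, 13 and 12 of them were above 0, and Per2 rose by 0.47 on the mouse mean without the striatum (adjusted p = 0.0063, 0.904% of all genes). Nr1d1 (Rev-erb alpha), a clock repressor known to lower Fabp7 in mouse brain, differed by 0.09 or less in size for MPTP + EX vs. MPTP outside the E29 library (adjusted p 0.62 or more on the mouse means and in each region, limma). Its mean FPKM was lower in MPTP + EX than in MPTP mice in each region. For Nr1d2, mean FPKM in saline, MPTP and MPTP + EX mice was 25.8, 30.6 and 25.4 in the cortex and 47.2, 54.3 and 49.0 in the cerebellum. It was 27.5, 33.5 and 30.8 in the SN and 27.7, 33.9 and 27.2 in the striatum without E29. Within groups, the centred correlation of Fabp7 with the clock genes over 47 libraries was -0.34 (Dbp) to 0.083 (Cry1), a description without a test. The part of the time of day in the Fabp7 values was not tested.

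**Figure D4:**
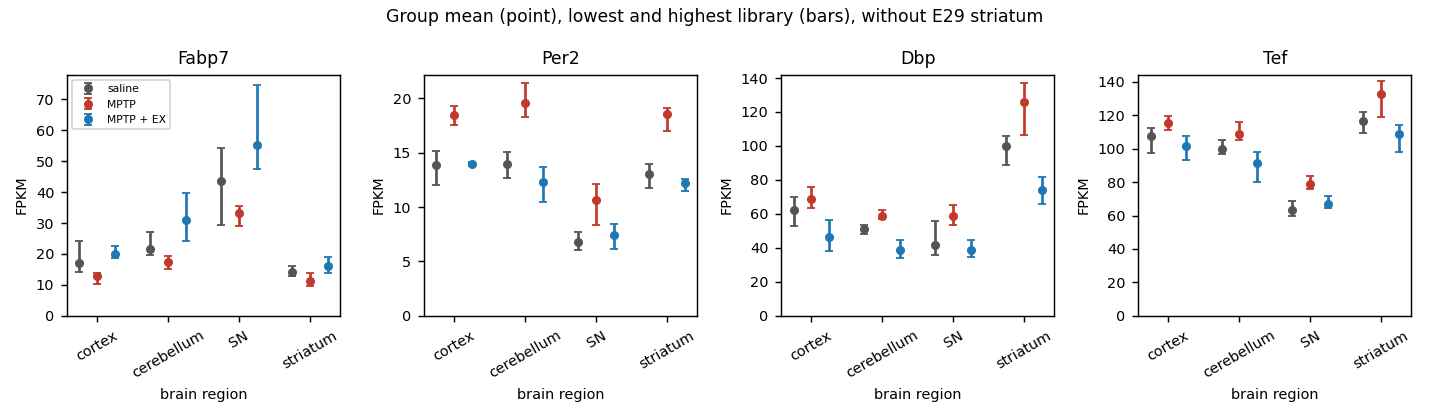
FPKM (y axis) of Fabp7 and of the clock genes Per2, Dbp and Tef by region (x axis) and treatment group (colour), as group means with bars from the lowest to the highest library, without the striatum library of E29. Fabp7 is lowest and Per2, Dbp and Tef are highest in the MPTP mice of each region.

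S100b was the only member that passed adjustment in a comparison of treatments within a region. In the SN it was 116, 117, 130.1 and 137 FPKM in saline mice, 145, 160.1, 174 and 179 in MPTP mice and 149, 166, 191 and 199 in MPTP + EX mice. Both MPTP groups lay above every saline library, as 3.61% of all genes did for MPTP vs. saline and 4.48% for MPTP + EX vs. saline. For MPTP + EX vs. saline it rose by 0.49 ± 0.10 on the log2 scale (standard error, adjusted p = 0.037 from limma, 1 of 10 members past adjustment, 1.02% of all genes), and for MPTP vs. saline the difference was 0.40 ± 0.10 (adjusted p = 0.11). Without the SN library of E29 they were 0.57 (adjusted p = 0.011) and 0.40 (adjusted p = 0.052). The call for MPTP + EX vs. saline was lost without any single one of E26, E27, E28, M16, S1, S2 or S3, and also with no filter, with no intensity trend or with only the 2 groups in the fit, with log2 differences of 0.43 to 0.57 over all 12 libraries left out.

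S100b did not overlap with saline in some other comparisons. In the cerebellum it was 188 to 207 FPKM in MPTP + EX mice and 153 to 187.5 in saline mice (0.24 ± 0.06, adjusted p = 0.15, 5.88% of all genes separated upwards). In the striatum it was 65.8 to 74.1 FPKM in MPTP mice and 62.7 to 64.6 in saline mice (0.11 ± 0.18, adjusted p = 1.0, 3.6% of all genes), or 0.11 ± 0.08 without E29. The cortex differed in direction, at 0.945 and 0.963 times the saline mean in MPTP and MPTP + EX mice. The difference between cortex and SN was -0.48 for MPTP vs. saline and -0.55 for MPTP + EX vs. saline (adjusted p 0.57 and 0.26 from limma over 48 libraries). Without the striatum library of E29, which enters the shared spread, the adjusted p was 0.032 and 0.0085, where 1.1% and 1.98% of all genes passed (0.201% for each with it). On the mouse mean of 4 regions S100b differed by 0.27 for MPTP + EX vs. saline (adjusted p = 0.12 from limma, 0.00819% of all genes), and by 0.22 without the striatum, which passed in limma (adjusted p = 0.024, 4.1% of all genes). The exact permutation test gave p = 0.0286 for both, or 0.214 adjusted over 30 tests. As this is the smallest p it can give, the adjusted value decides nothing here either. Oligodendrocyte markers moved with S100b in the SN. All 10 of them were above 0 for MPTP vs. saline and for MPTP + EX vs. saline, with medians of 0.22 and 0.43, and 9 had an unadjusted p under 0.05 in the latter (8.97% of all genes upwards). Their summed FPKM was 5260 to 6686 in saline mice, 6226 to 8316 in MPTP mice and 6726 to 9890 in MPTP + EX mice. The part of oligodendrocytes in the S100b values was not tested.

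Gfap, Vim, Aqp4 and Gja1 varied together across the SN libraries, and the size of their differences from saline depended on single libraries. Gfap in the SN was 220, 310.4, 312 and 362.5 FPKM in saline mice, 284, 422, 449 and 473 in MPTP mice and 147, 463, 480 and 487 in MPTP + EX mice. The value of 147 FPKM was that of E29, the lowest of all 12, and the 3 other MPTP + EX libraries lay above every saline library. Aqp4 was 63.3, 78.7, 81.5 and 83.1 FPKM in saline mice, 68.2, 99.9, 101 and 102 in MPTP mice and 52.4, 100.5, 109 and 114 in MPTP + EX mice. The low values were again those of S3, M23 and E29. With all libraries, Gfap differed by 0.43 ± 0.34 for MPTP vs. saline and by 0.26 ± 0.34 for MPTP + EX vs. saline (standard errors, adjusted p 0.66 and 0.74 from limma), and Vim by 0.52 ± 0.32 and 0.59 ± 0.32 (adjusted p 0.57 and 0.38).

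Without the SN library of E29, 6 of 10 members did not overlap with saline in MPTP + EX mice, Gfap, Vim, Aqp4, Gja1, Aldh1l1 and S100b, all higher, where 11.1% of all genes separated upwards. Vim differed by 0.93 ± 0.24 (adjusted p = 0.053), Gfap by 0.68 ± 0.18 (adjusted p = 0.060), Aqp4 by 0.49 ± 0.14 (adjusted p = 0.070) and Gja1 by 0.35 ± 0.09 (adjusted p = 0.056). None of these 4 passed, while S100b did (3.99% of all genes). Leaving out this library removes a low value from 1 group only, and it was chosen after its values were seen. In the E29 SN library the summed FPKM of microglial markers was 304 (392.5 to 679.9 in the other 11), of pericyte markers 50.2 (60.9 to 135 in the others) and of neuronal markers 2500 (2092 to 2462 in the others). For MPTP + EX vs. saline without E29, 9 of 9 meningeal fibroblast genes were above 0 with a median of 1.06, 12 of 12 microglial genes with a median of 0.26 and 6 of 6 pericyte genes with a median of 0.17, against 0.029 over all genes. The part of these cells in the member values was not tested.

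Across the 12 SN libraries the log2 level of Gfap correlated with that of Aqp4 at Pearson's r = 0.979 and Spearman's rho = 0.986 (permutation p = 1e-05 for each, the smallest that 100000 permutations give, 9e-05 adjusted over 18 relations). The correlation was 0.969 without E29 and S3, the 2 libraries farthest from the median of Gfap, and 0.983 within groups. With Gja1 it was r = 0.971 (rho = 0.944, adjusted permutation p = 9e-05 for each), 0.950 without these libraries, and with Vim r = 0.847 (rho = 0.881, adjusted permutation p = 0.00086 and 0.0016), 0.765 without them. The mean log2 level of core astrocyte genes, a list without members, correlated with Gfap at r = 0.849 (rho = 0.923, adjusted permutation p = 0.00086 and 0.00024). It was 0.738 without E29 and S3. Markers of some other cells varied with Gfap as well. The mean log2 level of 12 microglial genes correlated at r = 0.929 (rho = 0.874, adjusted permutation p = 0.00018 and 0.0016), 0.743 without the 2 libraries, and that of 9 neuronal genes at r = -0.74 (rho = -0.76, adjusted permutation p = 0.0087 and 0.0135), -0.67 without them. Pericyte genes (r = 0.852, rho = 0.832, adjusted permutation p = 0.00096 and 0.0038) and meningeal fibroblast genes (r = 0.753, rho = 0.853, adjusted permutation p = 0.0087 and 0.0027) passed too. Endothelial, oligodendrocyte, ependymal and choroid plexus genes did not, with r of -0.015 to 0.361 and adjusted permutation p for r of 0.325 to 0.96. Without E29 and S3 their r was 0.711 (endothelial), 0.720 (oligodendrocyte), -0.423 (ependymal) and -0.425 (choroid plexus), so that these values also depend on those libraries. Fabp7 (r = 0.166, rho = 0.182, adjusted permutation p = 0.638 and 0.606) and Serpina3n (r = 0.403, rho = 0.392, adjusted permutation p = 0.266 and 0.291) did not pass. With Slc1a3 it was r = 0.666 (rho = 0.280, adjusted permutation p = 0.0367 and 0.456) and 0.190 without E29 and S3, so that it rests on those libraries. Aldh1l1 passed for r alone (0.642, adjusted permutation p = 0.0429) and S100b for rho alone (0.748, adjusted permutation p = 0.0135). Without E29 and S3 their r was 0.326 and 0.823. Slc1a2 did not pass (r = 0.573, rho = 0.420, adjusted permutation p = 0.0717 and 0.266).

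**Figure D5:**
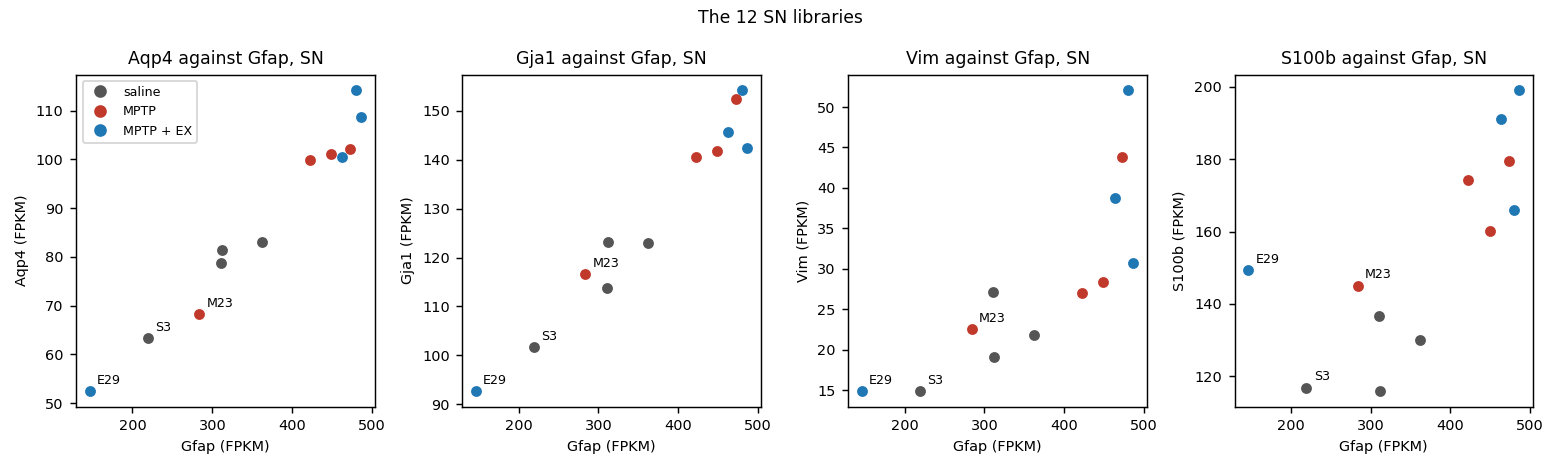
FPKM of Aqp4, Gja1, Vim and S100b (y axes) against Gfap (x axis) in the 12 SN libraries, coloured by treatment group, with E29, S3 and M23 named. E29, at 147 FPKM of Gfap, is the lowest point for Aqp4, Gja1 and Vim, and the 6 points with the highest Gfap are 3 MPTP and 3 MPTP + EX libraries.

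In the other regions none of these 4 genes passed adjustment. Gfap in the cerebellum was 61.3 to 73.0 FPKM in saline mice, 63.1 to 71.7 in MPTP mice and 52.2 to 66.8 in MPTP + EX mice, which overlap. In the cortex Gfap was 38.5 to 58.6 FPKM in MPTP mice, 49.5 to 88.0 in saline mice and 47.9 to 75.2 in MPTP + EX mice. It differed there by -0.43 ± 0.17 for MPTP vs. saline (adjusted p = 0.20 from limma), as large as in the SN and of the opposite sign, with 3 of 4 MPTP libraries below every saline library, and by 0.39 ± 0.17 for MPTP + EX vs. MPTP (adjusted p = 0.85). In the striatum without E29 Gfap was 46.5 to 60.5 FPKM in saline mice, 47.6 to 74.6 in MPTP mice and 60.1, 73.4 and 95.7 in MPTP + EX mice, a difference of 0.45 ± 0.17 for MPTP + EX vs. saline (adjusted p = 0.39) that was 0.28 ± 0.21 with E29 at 45.8 FPKM. Vim was higher by 0.33 ± 0.11 for MPTP vs. saline in the striatum without E29 (unadjusted p = 0.010, adjusted p = 0.43).

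In the comparison of MPTP + EX vs. MPTP, 0 of 10 members passed adjustment in any region, where 0% of all genes passed in the cortex, in the SN or in the striatum. At an unadjusted p under 0.05, Fabp7 and Gfap were higher in the cortex (5.73% of all genes in either direction), Fabp7 higher and Aldh1l1 lower in the cerebellum (5.78%), Fabp7 higher and Slc1a3 lower in the SN (7.3%), and Fabp7 higher in the striatum (3.75%), with Aqp4 as well without E29 (10.2%). Without the SN library of E29, Fabp7 alone passed in the SN (9.9%). Slc1a3 in the SN was 70.3, 91.9, 95.5 and 106 FPKM in MPTP + EX mice and 108, 111, 112 and 137 in MPTP mice, which did not overlap (-0.37 ± 0.16, adjusted p = 0.66, 2.47% of all genes separated downwards). The saline libraries spanned both, at 70.3, 74.5, 99.3 and 116 FPKM. The value of 137 FPKM was that of M21, whose SN library also held the highest sum of cerebellar granule and Purkinje cell markers in that region, 451 FPKM against 28.1 to 216, and Slc1a3 is highest in the cerebellum. The summed FPKM of neocortical markers in the SN was 80.3 to 176.5 in MPTP mice, 14.2 to 42.6 in MPTP + EX mice and 22.5 to 129.5 in saline mice. Slc1a3 was also higher in the saline cortex than in the saline SN on average. The part of cerebellar or cortical tissue in the Slc1a3 values of the SN was not tested. Aldh1l1 in the cerebellum was 20.3, 20.7, 22.4 and 23.07 FPKM in MPTP + EX mice and 23.11, 24.7, 24.96 and 25.7 in MPTP mice (-0.18 ± 0.06, adjusted p = 0.74, 1.51% of all genes), so that the nearest libraries differed by less than 0.1 FPKM. In the SN Aldh1l1 was 31.8 to 37.75 FPKM in MPTP mice and 27.2 to 31.1 in saline mice (0.22 ± 0.09, adjusted p = 0.39, 3.61% of all genes separated upwards).

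Slc1a2 did not pass an unadjusted p of 0.05 in any region for any of the 3 comparisons, with or without E29. Its log2 differences lay between -0.13 and 0.13 outside the fit that holds the E29 striatum library. Serpina3n, the member most tied to the reactive state, was 10.1, 11.2, 12.0 and 13.7 FPKM in the SN of MPTP mice and 7.94 to 11.1 in saline mice, and 9.61 to 12.3 in MPTP + EX mice. Its difference for MPTP vs. saline was 0.31 ± 0.12 (unadjusted p = 0.019, adjusted p = 0.33 from limma), and the groups overlapped. It was 2.83 to 5.80 FPKM in each cortex and striatum library without E29 and 0.915 to 2.0 FPKM in each cerebellum library, near the filter.

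Other genes of astrocytes were read from lists without members. Of 30 core astrocyte genes tested in the cortex, 27 were below 0 for MPTP vs. saline with a median of -0.19, 16 of them at an unadjusted p under 0.05 (10.5% of all genes downwards), and none passed adjustment. In the SN 26 of 29 were above 0 for MPTP vs. saline with a median of 0.16, 5 higher at an unadjusted p under 0.05 (5.69% of all genes upwards). Without the SN library of E29, 24 of 29 were above 0 for MPTP + EX vs. saline, 17 at an unadjusted p under 0.05 (13.3% of all genes upwards), and 4 rose. They were Hepacam, an adhesion molecule of glia (0.31, adjusted p = 0.019), Cldn10, a claudin (0.40, adjusted p = 0.030), Htra1, a secreted protease (0.44, adjusted p = 0.037), and Pla2g7, a secreted phospholipase (0.36, adjusted p = 0.041, limma). None of the list passed with that library in the fit. Genes that reactive astrocytes share (pan-reactive) were above 0 in 10 of 10 tested for MPTP + EX vs. saline in the SN, with a median of 0.43 and 3 at an unadjusted p under 0.05 (8.97% of all genes upwards). Those with the lowest p were the intermediate filament genes Synm (0.41, adjusted p = 0.055) and Nes (0.46, adjusted p = 0.089). Synm passed without E29 (0.42, adjusted p = 0.042).

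Of the genes raised in the state called A1, 9 of 10 tested were above 0 for MPTP + EX vs. saline in the SN (median 0.29), and of those of the state called A2, 6 of 6 (median 0.35), against a median of 0.029 over all genes. Neither list had a gene past adjustment with all libraries. In the SN the median summed FPKM of the pan-reactive list was 62.5 in saline, 69.0 in MPTP and 89.0 in MPTP + EX mice. It was 105, 111 and 136 for the A1 list and 54.4, 53.5 and 60.4 for the A2 list, in the same order. For each list the ranges of the 3 groups overlapped. In these SN groups the median summed FPKM of meningeal fibroblast markers was 2742 in MPTP + EX and 1865 in saline mice. It was 108 and 68.4 for pericyte markers and 522 and 465 for microglial markers. The part of these cells in the pan-reactive, A1 and A2 values was not tested. Without E29, Fkbp5, a chaperone that glucocorticoids induce, rose by 1.12 (adjusted p = 0.036). Of the genes of Bergmann and radial glia, Vcam1, an adhesion molecule, rose in the same fit by 0.58 (adjusted p = 0.013). In the cerebellum, the region of Bergmann glia, 4 of 10 genes of that list were above 0 for MPTP + EX vs. saline and 6 of 10 for MPTP vs. saline, with medians of -0.066 and 0.037. For the core, A1 and A2 lists the cerebellar medians lay between -0.040 and 0.054 over the 3 comparisons. The pan-reactive list had median sums of 57.7, 50.85 and 55.7 FPKM in the cortex of saline, MPTP and MPTP + EX mice. In the same order they were 53.0, 51.9 and 53.3 in the cerebellum and 52.5, 54.1 and 52.9 in the striatum with E29.

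The genes most like each member were sought by the correlation of log2(FPKM + 1) over 47 libraries, each centred on its region and group, without the striatum of E29. The points share mice and dissections, and the values are a description. Gfap was most like Gja1 (r = 0.846), and Bmp6 (0.814) was also among its nearest genes. Vim was most like Cnn3 (0.862), then Gja1, then Cp (0.827), Aqp4 most like Cnn3 (0.894), Gja1 (0.875) and Aebp1 (0.844), and Gja1 most like Aqp4, Cnn3 (0.860) and Gfap. Aldh1l1 went with Acot11 (0.858), Acsbg1 (0.772) and Gpr37l1 (0.749), and the last 2 are core astrocyte genes. Slc1a2 went with Sgsm2 (0.788), Lhx2 (0.746) and Fam81a (0.733), and Slc1a3 with Prex2 (0.787), Naaa (0.742) and Gldc (0.722), with r = 0.375 between the transporters themselves. S100b was most like Dbi (0.744), Cep120 (0.735) and Dtna (0.732), Fabp7 like Acsf2 (0.587), Hmgn1 (0.584) and Hnrnpab (0.579), and Serpina3n like A830018L16Rik (0.631), Klhl2 (0.592) and Cacng8 (0.588). The lowest first values were those of Fabp7 and Serpina3n, and Serpina3n correlated with Gfap at 0.070 and with Slc1a3 at 0.014.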

How the data were processed

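RNA-seq of 4 regions from 12 mice was analysed. The values are FPKM as the authors deposited them, with 23366 gene names in 1 table. Tophat2, Cufflinks and RSEM are named in the study's methods, and HISAT2 (version 2.1), HTSeq (version 0.11) and the build mm9 in the submitters' processing notes. Which tool gave the FPKM is not stated there. Mice were read from the start of the column names, since the labels do not tie replicate numbers to mice. Of the 23366 gene names, 27 read as spreadsheet dates, 0.209% to 0.329% of the column sums, and were left out.

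Per region, log2(FPKM + 1) of genes with a mean above 1 FPKM was fitted with limma (version 3.58.1, R version 4.3.3) in 1 model of 3 groups with an intensity trend, and p-values, two-sided, were adjusted by the Benjamini-Hochberg method over all genes. Fold changes on this scale understate those of low genes. Regions of saline mice (16 libraries), region by treatment (48 libraries) and, added after seeing the data, mouse means over regions were fitted likewise. The alternatives are named in the closing section. Treatment groups were different mice and are not paired. Libraries of 1 mouse, as the column names give it, shared a correlation of 0.0446 in the fit with mouse as a replicate block, which gave 1 member past adjustment for MPTP + EX vs. saline in the SN, as without it. On data simulated for MPTP vs. saline, a shift of 0.5 was recovered in 87% of genes in the cortex (13049 genes), 83% in the cerebellum (12949), 68% in the SN (13483), 13% in the striatum (13238) and 82% there without E29 (13220). In each simulation 100 genes were shifted by 0.5 and 100 by 1, none of them among the lowest genes, with independent normal noise. The shares hold for that setting only, since the adjustment is stricter where fewer genes change, and a lone change of 0.5 would be called less often. Figures were drawn with matplotlib (version 3.10.9).

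The members and lists were chosen with earlier results of these data known. Genes named are the 10 members, the 3 most like each (1 of them is not reported here), and from each list those past adjustment or otherwise up to 4 with the lowest p. The clock genes, and Per2, Dbp, Tef, Cry1, Nr1d1 and Nr1d2 among them, were chosen after their values were seen. Relations between SN libraries used 100000 permutations in scipy (version 1.17.1).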

Additional observations from a re-analysis of the deposited data

Results flagged for a closer look

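In 12 of 120 groups of 4 libraries, 1 library stood apart from the other 3 of its group by a gap that chance gives in about 1 of 20 groups, or 6 of 120. Fabp7 had 4 of them, all high, at 24.1 FPKM in the cortex of S1, 22.7 in the cortex of E29, 27.1 in the cerebellum of S4 and 74.8 in the SN of E27. S100b had 2, both high and in the striatum, at 64.6 FPKM in S1 and 74.1 in M16, where the other 3 saline libraries spanned 62.68 to 62.73 FPKM. Aqp4 was low at 51.3 FPKM in the cerebellum of S2 and at 68.2 in the SN of M23, and Slc1a2 was high at 98.8 FPKM in the cerebellum of S2. Slc1a3 was high at 137 FPKM in the SN of M21 and low at 43.8 in the striatum of E29. Gfap was low at 147 FPKM in the SN of E29.

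The treatment differences of S100b differed between the cortex and the SN without the striatum library of E29, by -0.48 for MPTP vs. saline and by -0.55 for MPTP + EX vs. saline on the log2 scale (limma, adjusted p 0.032 and 0.0085). With that library in the fit the values were the same and the adjusted p 0.57 and 0.26.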

How the results depend on the processing

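Tried instead were 0.1 as the pseudocount, a filter on the highest group mean or none, a common median, quantile normalization, no trend, fits of 2 groups, 1 fit of 48 libraries, mouse as a replicate block and each library left out. Of 501 counts of members past adjustment under them, 481 stayed within 1.5 times the main count, 11 were lower and 9 higher. Of 5010 member values, 55 lost the call, 24 gained it, 48 uncalled ones changed sign by more than their error, and 0 called values changed sign. The call of S100b for MPTP + EX vs. saline in the SN was lost (0 members against 1) with no filter, no trend and 2 groups, and over the libraries left out the count was 0 to 1. Leaving out a library gave 0 to 1 members for MPTP + EX vs. MPTP and for MPTP + EX vs. saline in the cerebellum (1 without E26 and 1 without saline S1), and 1 to 5 for cortex against striatum in saline mice (3 with all). On mouse means over regions, the count was 0 to 2 for MPTP + EX vs. saline (2 without E29), and 1 for MPTP + EX vs. MPTP and 1 for MPTP + EX vs. saline on the mean of 3 regions, against 0. For the difference between cortex and SN, 1 member (S100b) passed for MPTP + EX vs. saline under quantile normalization, and 1 for each comparison with saline without the striatum of E29. The causes were not tested. With mouse as a replicate block the saline count for cortex against cerebellum was 8 against 7, and the other saline counts were the same. With 4 libraries a group and 1 atypical striatum library, a shift of 0.5 in the striatum would mostly be missed. FPKM carry no read depth, so low genes such as Serpina3n in the cerebellum have an unknown counting error.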

Other observations

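Fkbp5, a chaperone that glucocorticoids induce and that the A1 list holds, had a difference above 0 in all 4 regions for both comparisons with saline. For MPTP + EX vs. saline it was 0.68 in the cortex (adjusted p = 0.14), 0.83 in the cerebellum (adjusted p = 0.20), 0.93 in the SN (adjusted p = 0.12) and 0.44 in the striatum (adjusted p = 0.64), or 0.65 without E29 (adjusted p = 0.31), none past adjustment in limma. Without the SN library of E29 it rose in the SN by 1.12 (adjusted p = 0.036). For MPTP vs. saline it was 0.45, 0.64, 0.59 and 0.49 in the same order (adjusted p 0.23 to 1.0).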
